A study of Homo sapiens with 9 samples.

Results

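Neuregulins and ERBB receptors are described here as 10 genes of the 60683 in the count files: the ligand genes NRG1, NRG2, NRG3, NRG4 and BTC, the receptor genes EGFR, ERBB2, ERBB3 and ERBB4, and ERRFI1, which encodes an intracellular inhibitor of the receptors. Each symbol was matched to 1 Ensembl identifier. The genes were chosen by the fitted change of NRG1 in clone 15 against parental cells: NRG1 was picked as the gene that rose most there, and the rest are its relatives and receptors. In the fit used here its change ranked 15 of 17703 genes, and 3 of the 11314 protein-coding genes with at least 5 counts per 1000000 on average. The clone 15 against parental values of these genes are therefore given as a description without a test, and so is NRG1 in clone 37 against clone 15. Clone 37 against parental cells was not used in the choice, but it shares the parental libraries with the comparison that was.

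The cells were HEK293T, an established line from human embryonic kidney that carries the SV40 large T antigen, grown in DMEM with fetal bovine serum. The parental cells were without a reporter. Clone 15 and clone 37 are each 1 single-cell clone, made with the piggyBac transposon, that carries both an ATG-(CAG)60-Myc-NLuc and an ATG-(CAG)0-Myc-FLuc reporter. The labels describe expression of both reporters as high in clone 37 and low in clone 15. Each reporter level is thus 1 clone, and the clone and its reporter level cannot be told apart. There were 3 replicates in each of the 3 groups. Clone 15 libraries were read at 100 bp and all others at 75 bp, so clone 15 and the read length cannot be told apart either. No label says that replicates were separate cultures, so p-values measure the spread between these libraries, which may be technical.

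Neuregulins are EGF-like growth factors that are made as membrane-bound or secreted precursors and bind ERBB3 or ERBB4. The 4 receptors work as pairs: EGFR and ERBB4 bind ligand and signal through their own kinase, ERBB2 binds no known ligand and is the favoured partner of the others, and ERBB3 has a very weak kinase and recruits PI3-kinase when its partner phosphorylates it. The signal runs mainly through RAS and ERK and through PI3-kinase and AKT, and it is known for its roles in heart, nerve and mammary development.

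Gene counts summed to between 10334090 and 38093340 per library, and all clone 15 libraries were deeper than any other. All 5 embryonic kidney markers examined, PAX2 and LHX1 among them, were detected in every library, with a summed level of 154 to 190 CPM. CPM is a gene's count per 1000000 counts in all genes of the library. The summed level of the 4 blood markers reached at most 0.555 CPM, with CD3E at 0 counts in every library, and that of the 3 endothelial markers at most 0.650 CPM. The 6 fibroblast markers summed to 57.3, 78.0 and 179 CPM in clone 15 replicates 1, 2 and 3, against 49.1 to 52.1 in parental and 19.4 to 21.3 in clone 37 libraries. Clone 15 replicate 3 stood apart in this list, mostly through 2 collagen genes. COL1A1 was at 48.3, 61.4 and 108 CPM in clone 15 replicates 1, 2 and 3, and at 18.4 to 35.5 CPM in the other groups. COL1A2 was at 5.59, 12.2 and 56.8 CPM there and had 0 counts in every library of the other groups. COL3A1 and LUM were lower in clone 15 than in parental libraries (2.36 to 9.49 against 12.4 to 14.5 CPM, and 0.394 to 1.45 against 1.73 to 2.41 CPM), and DCN and PDGFRB stayed under 2 CPM. COL3A1, LUM, DCN and PDGFRB too were highest within clone 15 in replicate 3. The 5 glial markers summed to 0.891 to 3.15 CPM over all libraries, with SOX10 at 0 in parental cells. The 4 epithelial markers, all detected in every library, summed to 62.3 to 73.0 CPM in parental libraries, 84.1 to 98.3 in those of clone 15 and 62.1 to 64.1 in those of clone 37.

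Promoter windows of 3 members are shown because these genes bear on results below: EGFR and ERBB4 were lower in both clones than in parental cells, and a start of NRG3 has a CAG run, the repeat unit of the reporter, ahead of it. Sequences and starts are from RefSeq on GRCh38.p14, and each line is written 5′ to 3′ on the gene's own strand. Capitals mark every GC box (GGGCGG, or CCGCCC where it lies on the other strand) and every run of CAGCAGCAG. Up to 250 bases ahead of the start are shown, with exons of other transcripts left off. EGFR lies at chr7:55018767-55019016 on the plus strand, ERBB4 at chr2:212538842-212539052 on the minus strand and NRG3 at chr10:81874944-81875193 on the plus strand.
EGFR: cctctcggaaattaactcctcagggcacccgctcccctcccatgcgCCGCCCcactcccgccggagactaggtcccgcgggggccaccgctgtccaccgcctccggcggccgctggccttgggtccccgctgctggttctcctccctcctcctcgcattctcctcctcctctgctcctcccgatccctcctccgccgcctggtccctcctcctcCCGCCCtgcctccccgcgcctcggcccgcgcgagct
ERBB4: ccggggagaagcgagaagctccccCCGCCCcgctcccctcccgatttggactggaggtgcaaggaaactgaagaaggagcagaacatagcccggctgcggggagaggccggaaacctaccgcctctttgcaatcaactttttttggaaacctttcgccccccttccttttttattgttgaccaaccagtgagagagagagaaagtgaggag
NRG3: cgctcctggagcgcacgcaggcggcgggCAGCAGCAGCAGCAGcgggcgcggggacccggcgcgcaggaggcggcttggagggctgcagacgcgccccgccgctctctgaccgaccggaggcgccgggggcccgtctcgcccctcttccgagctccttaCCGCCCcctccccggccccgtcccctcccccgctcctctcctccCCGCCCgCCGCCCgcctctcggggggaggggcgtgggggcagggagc
The EGFR window held 2 GC boxes, the ERBB4 window 1 and the NRG3 window 3. The CAG run of NRG3 gave 3 overlapping matches. RefSeq gives a second NRG3 start further on, next to the start of the gene in GENCODE 29. Its window, chr10:81875064-81875313, overlaps the one shown and held 3 GC boxes and no CAGCAGCAG. A second EGFR start, inside the gene, had no GC box and 2 matches to TATAAA. Over 35116 promoter windows of 250 bases, with both strands searched, 42.6% held a GC box, 13.9% held 3 or more and 1.17% held CAGCAGCAG. None of the 3 windows shown held the TATA box letters TATAAA, which 10.7% of all windows held. These are matches of letters, not measured binding sites.

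NRG1, the ligand with many isoforms that acts on ERBB3 and ERBB4, spans 31639386 to 32767959 on the plus strand of chromosome 8 in GENCODE 29 (identifier ENSG00000157168). It stood at 1.94, 2.01 and 3.37 CPM in parental replicates 1, 2 and 3, at 32.9, 31.8 and 34.6 CPM in clone 15, and at 0.548, 0.677 and 0.648 CPM in clone 37. These levels rest on 93 counts in the parental group, 2684 in clone 15 and 21 in clone 37. The 3 groups did not overlap: every clone 15 library was far above, and every clone 37 library below, all parental libraries. The mean over the 3 libraries of each group was 2.44 ± 0.803 CPM (SD) for parental cells, 33.1 ± 1.38 for clone 15 and 0.624 ± 0.0678 for clone 37.

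In clone 37, NRG1 fell by 1.98 on the log2 scale against parental cells, with a standard error of 0.35, or 3.95-fold (adjusted p = 0.000119, edgeR's quasi-likelihood test with Benjamini-Hochberg adjustment over 16501 genes). In clone 15 its fitted log2 fold change against parental cells was 3.72 ± 0.16 (SE), and between the clones it was -5.71 ± 0.17 for clone 37 against clone 15. Without clone 15 replicate 3, the library in which fibroblast markers were highest, the clone 15 value was 3.70. Of 5 neuronal genes that HEK293 lines are known to express, the neurofilament genes NEFM and NEFL took the same order as NRG1. NEFM was at 475 to 633 CPM in parental, 2646 to 2810 in clone 15 and 135 to 139 in clone 37 libraries, and NEFL at 213 to 256, 704 to 737 and 59.8 to 61.4 CPM. These genes dominate the list, which summed to 740 to 944, 3440 to 3572 and 219 to 227 CPM. INA was lower in clone 15 (13.3 to 15.1 CPM) than in parental libraries (17.3 to 19.7), ENO2 overlapped between them, and NEFH had at most 4 counts in any library. The part of these genes in the NRG1 values was not tested. In bulk RNA, fewer cells that express a gene and less RNA per cell cannot be told apart.

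**Figure D1:**
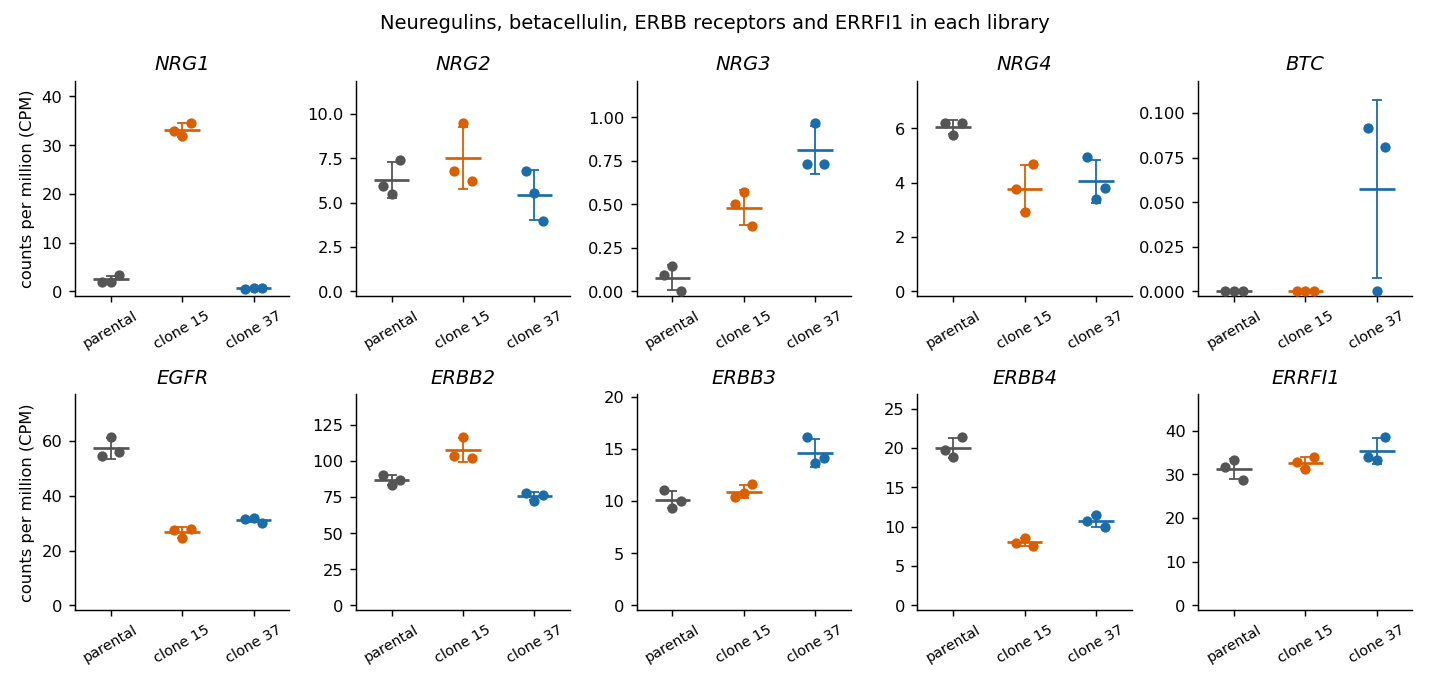
Level of each of the 10 genes in CPM (vertical axes, linear and on a different scale in each panel) in the 3 parental, 3 clone 15 and 3 clone 37 libraries. Points are libraries, horizontal lines are means and bars are SDs. NRG1 sits between 31.8 and 34.6 CPM in clone 15 and under 4 CPM in all other libraries, while EGFR and ERBB4 are lower in all libraries of both clones than in any parental library.

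The other neuregulin genes moved less than NRG1 or were barely expressed. NRG2, a ligand of ERBB3 and ERBB4 (ENSG00000158458, chromosome 5, 139846779 to 140043299), stood at 5.92, 5.47 and 7.42 CPM in parental libraries, 6.77, 9.50 and 6.22 in clone 15 libraries and 6.76, 5.52 and 3.97 in those of clone 37. All 3 groups overlapped. Clone 37 did not pass the test against parental cells (log2 fold change -0.25 ± 0.20, adjusted p = 0.302), and the clone 15 value was 0.23 ± 0.18.

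Between the clones NRG2 was lower in clone 37 by the same edgeR test (log2 fold change -0.48 ± 0.18, adjusted p = 0.0303). That call was lost without clone 15 replicate 2 (-0.31, adjusted p = 0.113), without clone 37 replicate 2 (-0.48, 0.0814) and without clone 37 replicate 3 (-0.29, 0.224). DESeq2 also lost it (-0.47, adjusted p = 0.0578), as did the setting against neighbouring genes (-0.30, 0.179) and the removal of GC and length trends (-0.34, 0.0724).

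NRG4, a ligand that acts chiefly on ERBB4 (ENSG00000169752, chromosome 15, 75935969 to 76059795), had 6.20, 5.75 and 6.20 CPM in parental libraries, 3.75, 2.92 and 4.66 in clone 15 libraries and 4.93, 3.39 and 3.805 in those of clone 37. Every library of either clone was below every parental library, and the clones overlapped each other. NRG4 fell by 0.60 ± 0.18 on the log2 scale in clone 37 (adjusted p = 0.0101, edgeR), its clone 15 value was -0.72 ± 0.20, and the clones did not pass the test against each other (0.11 ± 0.21, adjusted p = 0.662).

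The NRG4 fall in clone 37 is the least secure of the falls against parental cells. Exons of NRG4 share 1917 bases with FBXO22 on the opposite strand, and 1801 counts lay on the strand opposite to NRG4 against 666 on its own. With unstranded counts, which cannot tell the 2 genes apart, the log2 fold change was -0.25 (adjusted p = 0.265) in clone 37 and -0.36 in clone 15. The call was also lost without clone 37 replicate 2 (-0.49, adjusted p = 0.0601).

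NRG3, a ligand of ERBB4 best known in brain (ENSG00000185737, chromosome 10, 81875314 to 82987179), had only 1, 2 and 0 counts in parental replicates 1, 2 and 3. The clone 15 libraries held 19, 14 and 7 counts and those of clone 37 held 8, 10 and 9, or 0.375 to 0.569 CPM and 0.729 to 0.968 CPM. The groups did not overlap, with clone 37 highest and parental cells lowest. NRG3 did not pass the filter on low counts against parental cells. As a ratio of pooled counts it was 10.1 times the parental level in clone 37, with a 95% exact counting interval of 3.11 to 52.1, and 6.19 times in clone 15, with an interval of 1.97 to 31.3. These intervals cover counting error only. Between the clones NRG3 was tested and did not pass (0.71 ± 0.41, adjusted p = 0.138, edgeR).

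BTC encodes betacellulin, a ligand of EGFR and ERBB4 (ENSG00000174808, chromosome 4, 74744759 to 74794686). It had 0 counts in all libraries except clone 37 replicates 1 and 3, which had 1 count each. A count of 0 allows up to 0.0794 CPM over the parental group and 0.0369 CPM over clone 15, so no difference was detectable at this depth.

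Among the receptors, EGFR and ERBB4 were lower in both clones. EGFR (ENSG00000146648, chromosome 7, 55019021 to 55211628), whose promoter window is printed above, stood at 54.5, 61.6 and 55.9 CPM in parental libraries, 27.4, 24.4 and 27.9 in clone 15 libraries and 31.5, 31.8 and 30.2 in those of clone 37. No library of either clone reached the parental range, and all clone 37 libraries were above all clone 15 libraries. EGFR fell by 0.91 ± 0.08 on the log2 scale in clone 37 (adjusted p = 2.37e-08, edgeR), and its clone 15 value was -1.14 ± 0.10.

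Between the clones EGFR was higher in clone 37 by 0.23 ± 0.08 (adjusted p = 0.0177, edgeR). This small difference missed the threshold without clone 15 replicate 2 (0.15, adjusted p = 0.0851), without clone 37 replicate 1 (0.23, 0.0567) and without clone 37 replicate 2 (0.23, 0.0553).

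ERBB4, the receptor with its own kinase that binds all neuregulins (ENSG00000178568, chromosome 2, 211375717 to 212538841), had 19.7, 18.8 and 21.4 CPM in parental libraries, 7.90, 8.57 and 7.56 in clone 15 libraries and 10.8, 11.4 and 9.96 in those of clone 37. The 3 groups did not overlap, in the same order as for EGFR. ERBB4 fell by 0.93 ± 0.11 in clone 37 (adjusted p = 1.11e-06, edgeR), its clone 15 value was -1.35 ± 0.12, and it was higher in clone 37 than in clone 15 by 0.42 ± 0.13 (adjusted p = 0.00554). Of the epithelial markers, CDH1 was lower in both clones as well, at 3.86 to 4.39 CPM in clone 15 and 3.29 to 3.72 in clone 37 against 12.5 to 14.2 in parental libraries, while KRT18 was higher in both. KRT8 was higher in clone 15 (16.9 to 19.1 CPM) and lower in clone 37 (10.5 to 13.0) than in parental libraries (13.2 to 16.1). EPCAM was lower in clone 37 (0.387 to 0.810 CPM against 1.15 to 2.52 in parental libraries), and clone 15 overlapped the parental range. The part of these markers in the EGFR and ERBB4 values was not tested.

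ERBB2 and ERBB3 took other patterns. ERBB2 (ENSG00000141736, chromosome 17, 39687914 to 39730426) stood at 89.9, 82.9 and 86.4 CPM in parental libraries, 103, 117 and 102 in clone 15 libraries and 77.7, 72.3 and 76.2 in those of clone 37. All clone 15 libraries were above, and all clone 37 libraries below, the parental range. ERBB2 fell by 0.22 ± 0.06 in clone 37 against parental cells (adjusted p = 0.00511, edgeR) and was lower in clone 37 than in clone 15 by a log2 difference of -0.50 ± 0.06 (adjusted p = 7.52e-08), while its clone 15 value against parental cells was 0.28 ± 0.08. After each library's dependence on GC content and on transcript length was taken out, the clone 37 values were -0.14 against parental cells (adjusted p = 0.0464) and -0.31 against clone 15.

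ERBB3, the receptor with the weak kinase (ENSG00000065361, chromosome 12, 56076799 to 56103505), had 11.01, 9.35 and 10.03 CPM in parental libraries, 10.4, 10.8 and 11.6 in clone 15 libraries and 16.2, 13.6 and 14.1 in those of clone 37. All clone 37 libraries were above all others, and the other groups overlapped. ERBB3 rose by 0.51 ± 0.12 on the log2 scale in clone 37 (adjusted p = 0.00161, edgeR) and was also higher there than in clone 15 (0.43 ± 0.11, adjusted p = 0.0018). Its clone 15 value against parental cells was 0.08 ± 0.14.

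ERRFI1 encodes MIG6, a feedback inhibitor that binds the kinase domain of EGFR and ERBB2 (ENSG00000116285, chromosome 1, 8004404 to 8026308). It had 31.7, 33.3 and 28.8 CPM in parental libraries, 32.7, 31.2 and 34.0 in clone 15 libraries and 34.1, 33.2 and 38.6 in those of clone 37. All 3 groups overlapped. The log2 fold change was 0.15 ± 0.09 in clone 37 against parental cells (adjusted p = 0.159, edgeR), 0.12 ± 0.08 against clone 15 (adjusted p = 0.199), and 0.03 ± 0.10 for clone 15 against parental cells. Without parental replicate 2 the clone 37 difference from parental cells passed, at 0.21 (adjusted p = 0.0206).

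Counted together, 8 of the 10 genes could be tested in clone 37 against parental cells, and 6 were called at an adjusted p under 0.05: ERBB3 was higher, and NRG1, NRG4, EGFR, ERBB2 and ERBB4 were lower. Of all 16501 genes tested, 54.0% were called, 26.7% higher and 27.3% lower, so the count of 6 of 8 is to be read against a background in which most genes differed. The median log2 fold change of the 8 was -0.43, against 0.02 for all genes tested. The same 6 genes had groups that do not overlap in CPM, which held for 61.7% of all genes tested, 33.1% higher and 28.6% lower. NRG2 and ERRFI1 were not called, and NRG3 and BTC were not tested.

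For clone 15 against parental cells, 5 of the 8 genes past the filter on low counts had groups that do not overlap (NRG1 and ERBB2 higher, NRG4, EGFR and ERBB4 lower), beside 59.5% of 17703 genes, 31.5% higher and 28.0% lower. Nothing is read from this count, since NRG1 was chosen on this comparison. The median of the 8 was 0.05, and that of all genes 0.02. Between the clones, with NRG1 left out because it was chosen on clone 15, 5 of 8 genes were called (EGFR, ERBB3 and ERBB4 higher in clone 37, and NRG2 and ERBB2 lower), beside 57.7% of 17712 genes, 28.7% higher and the remainder lower. The medians were 0.18 for the 8 genes and -0.00152 for all. Without overlap between the groups were 4 of the 8 higher in clone 37 (NRG3, EGFR, ERBB3 and ERBB4) and 1 lower (ERBB2), beside 31.5% and 32.1% of all genes, or 63.5% in all. The comparisons share libraries with each other, so each one's values are given side by side.

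**Figure D2:**
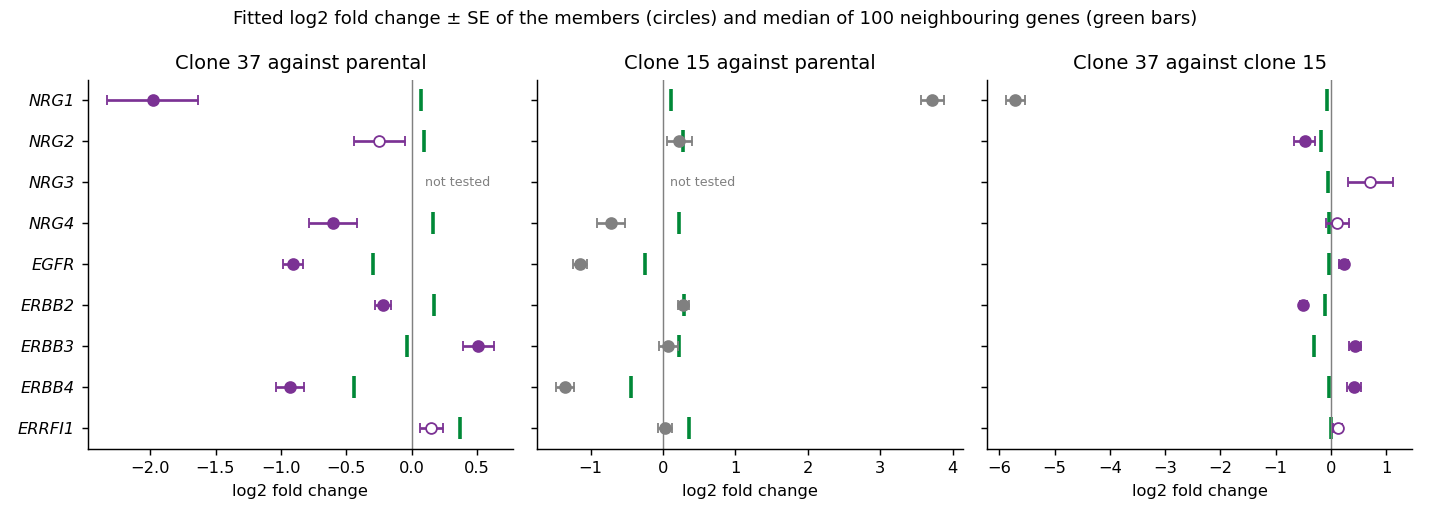
Fitted log2 fold change with its SE (horizontal axis, circles with bars) of the 9 genes tested in at least 1 of the 3 comparisons, with green bars for the median of the 100 tested genes around each on its chromosome. Filled purple circles were called, open circles were not, and grey circles carry no test. NRG1 lies at -1.98 in clone 37 and 3.72 in clone 15 against parental cells, and EGFR and ERBB4 lie to the left of their green bars in both.

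The order of the 10 genes by level was compared on CPM per kilobase of annotated exon, since genes differ in length. In parental cells ERBB2 was highest at 8.37, followed by ERRFI1 at 7.47 and EGFR at 4.58, and these 3 did not overlap. ERBB4 at 1.54, NRG2 at 1.39, NRG4 at 1.20 and ERBB3 at 1.12 came next, and each overlapped the next in its range over libraries. NRG1 at 0.216 was well below them and above NRG3 and BTC.

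In clone 15 the same per-kilobase scale put NRG1 in position 3 at 2.92, above EGFR at 2.12 without overlap. EGFR overlapped NRG2 at 1.66 there, and NRG4 at 0.751 overlapped ERBB4 at 0.615. ERBB2 at 10.4 and ERRFI1 at 7.80 stayed above NRG1. In clone 37 ERRFI1 at 8.43 stood above ERBB2 at 7.30, followed by EGFR at 2.49, ERBB3 at 1.62 and NRG2 at 1.20, none overlapping the next. ERBB4 at 0.823 overlapped NRG4 at 0.803, and NRG1 at 0.0551 was below NRG3 at 0.159. With the length of the longest transcript in place of all exons, ERBB2 was highest in clone 37 too, where ERBB4 and NRG4 changed places. In parental cells ERBB4 then moved from position 4 to 7, NRG4 from 6 to 4, NRG2 from 5 to 6 and ERBB3 from 7 to 5, so the order of these 4 depends on the length used.

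The make-up of the receptor transcripts differed between the groups. As a share of the summed per-kilobase level of the 4 receptors, ERBB2 made up 53.6% ± 1.55 of it in parental cells, 72.4% ± 2.16 for clone 15 and 59.7% ± 1.13 for clone 37 (mean ± SD of 3 libraries each). EGFR made up 29.3% ± 2.24, 14.9% ± 1.69 and 20.4% ± 0.819 in the same order. In every library of both clones the ERBB2 share was above, and the EGFR share below, all parental libraries. The mean summed level itself was 15.6 in parental cells, 14.3 in clone 15 and 12.2 in clone 37. In clone 37 the ERBB2 level was lower than in parental cells (7.30 against 8.37 per kilobase), although its share was higher.

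ERBB4 took 9.84% ± 0.631 of the summed level in parental cells, 4.29% ± 0.115 in clone 15 and 6.74% ± 0.546 in clone 37, again with no overlap. ERBB3 took 7.18% ± 0.507, 8.43% ± 0.667 and 13.2% ± 0.796. The ratio of ERBB2 to EGFR ran from 1.63 to 2.00 in parental, 4.43 to 5.79 in clone 15 and 2.75 to 3.06 in clone 37 libraries, whereas the ratio of EGFR to ERBB4 ran from 2.71 to 3.40, 2.97 to 3.84 and 2.90 to 3.15. The groups were thus apart in the first ratio and overlapped in the second. With the length of the longest transcript the shares moved. ERBB2 was then at 65.6%, 80.6% and 70.1%, EGFR at 21.9%, 10.1% and 14.6% and ERBB4 at 6.16%, 2.45% and 4.05% in parental, clone 15 and clone 37 libraries. The ratio of ERBB2 to EGFR then ran from 2.68 to 3.29, 7.27 to 9.51 and 4.52 to 5.03 in the same order. Another length scales this ratio alike in every library, so the overlap of groups in it could not change. These shares restate the same counts, and with 3 against 3 libraries an exact permutation test cannot go below p = 0.1, so no test is given.

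**Figure D3:**
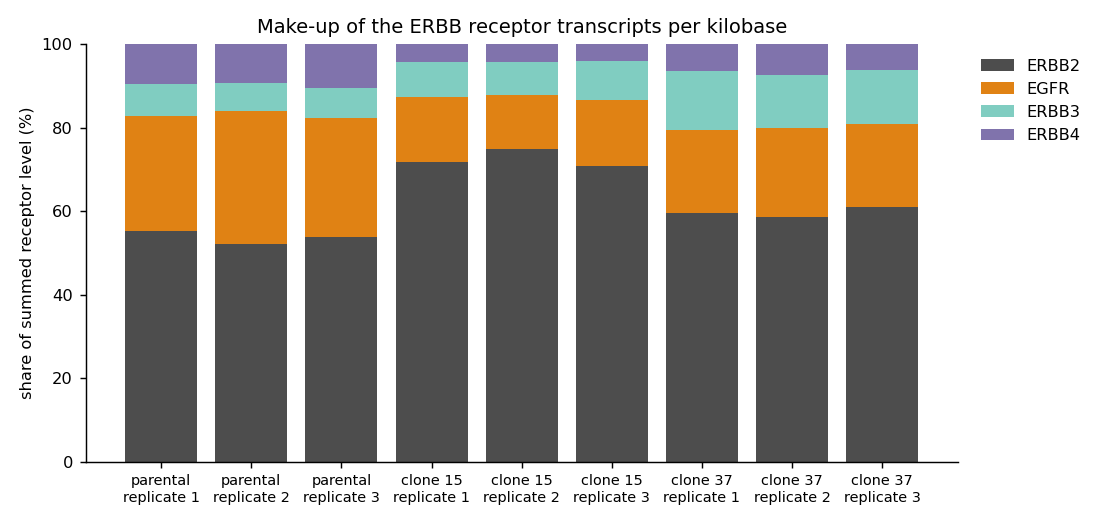
Share of each receptor gene (percent, stacked) in the summed per-kilobase level of EGFR, ERBB2, ERBB3 and ERBB4, 1 bar for each of the 9 libraries. The ERBB2 share is 70.7% to 74.8% in the clone 15 libraries against 52.1% to 55.2% in the parental ones, and the ERBB3 share is highest in the clone 37 libraries.

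Genes around a member on its chromosome were compared with it, because HEK293T cells are aneuploid and clones of such cells can differ in whole chromosome segments. Copy number itself was not measured. Around ERBB4, the 3 nearest tested protein-coding genes on each side were all called lower in both clones: ACADL (log2 fold change -0.65 in clone 37 and -1.07 in clone 15), LANCL1 (-0.87 and -1.26), CPS1 (-0.57 and -1.34), IKZF2 (-0.70 and -0.47), SPAG16 (-0.71 and -0.88) and BARD1 (-0.53 and -0.78). The median of the 100 tested genes around ERBB4 was -0.44 in clone 37 and -0.44 in clone 15. Relative to that median, ERBB4 was at -0.49 in clone 37 (adjusted p = 0.00129, edgeR) and at -0.91 in clone 15. These neighbours were named by position, after the values were seen.

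Around EGFR the 100-gene median was -0.30 in clone 37 and -0.24 in clone 15, and EGFR relative to it was at -0.61 (adjusted p = 4.55e-06, edgeR) and -0.90. Its nearest neighbours were uneven: in clone 37 and clone 15, GRB10 was at -1.32 and -0.93, COBL at -0.07 and -0.09, SEC61G at -0.57 and -0.17, LANCL2 at -0.25 and -0.15, VOPP1 at -0.41 and -0.18, and ZNF713 at 0.21 and -0.59. GRB10 was thus lower in clone 37 than EGFR itself, which was at -0.91. Around NRG1 the medians were 0.07 and 0.11. The 3 genes on each side of NRG1 ran from -0.03 (WRN, a DNA helicase) to 0.75 (MAK16) in clone 37 and from -0.44 (WRN) to 0.32 (TTI2) in clone 15, far from the 3.72 of NRG1 itself. The part of copy number in the values of any member was not tested.

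For the other receptors, the medians of the 100 genes around ERBB2 were 0.17 in clone 37 and 0.30 in clone 15, the latter as large as the ERBB2 value of 0.28. Relative to them ERBB2 was at -0.39 in clone 37 (adjusted p = 4.82e-05, edgeR) and at -0.015 in clone 15. ERBB3 against clone 15 was at 0.75 relative to its neighbours in clone 37 (adjusted p = 3.93e-06), more than the 0.43 without that step. ERRFI1 turned from 0.15 to -0.22 in clone 37 and from 0.03 to -0.33 in clone 15 relative to its neighbours.

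**Figure D4:**
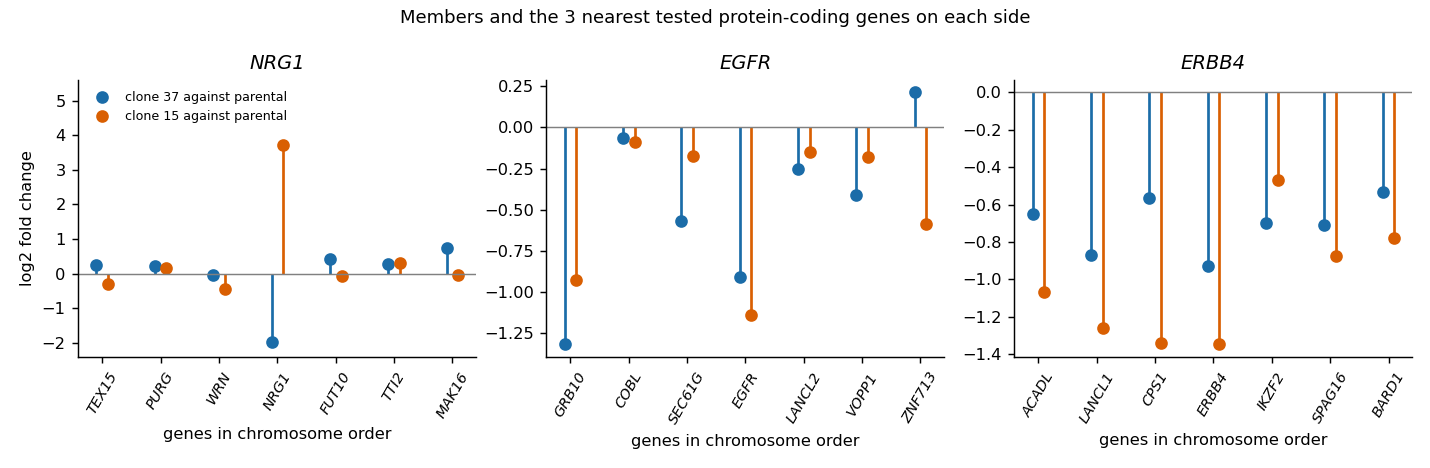
Log2 fold change against parental cells (vertical axis) of NRG1, EGFR, ERBB4 and the 3 nearest tested protein-coding genes on each side, in chromosome order, for clone 37 (blue) and clone 15 (orange). All 6 neighbours of ERBB4 lie below 0 in both clones, while NRG1 at 3.72 in clone 15 stands above neighbours between -0.44 and 0.32.

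Another 69 genes of the pathway, in 7 lists, were described by counts. In clone 37 against parental cells 61 were tested, of which 15 were called higher, 21 lower and 25 not, with a median log2 fold change of -0.07. With GC and length trends removed the split was 19 higher and 16 lower, so which direction prevailed hung on that step. In clone 15 against parental cells 9 were called higher, 19 lower and 33 not, and with those trends removed 18 higher and 16 lower. Between the clones 21 of 63 were higher in clone 37, 19 lower and 23 not called. Over the 59 genes tested in all 3 comparisons, 14 were higher and 21 lower in clone 37 against parental cells, 8 and 19 in clone 15, and 19 and 17 between the clones. The called share, 36 of 61 in clone 37, lies near the 54.0% of all genes. Each list's counts stand beside 26.7% of all genes called higher and 27.3% lower in clone 37, 25.1% and 26.2% in clone 15 (51.4% called in all), and 28.7% higher and the remainder of 57.7% lower between the clones.

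The ligands outside the members held 2 genes that rose in clone 37, of 3 tested. HBEGF, a membrane-anchored ligand of EGFR and ERBB4, stood at 3.70, 2.59 and 3.44 CPM in parental libraries, 5.91, 6.05 and 5.20 in clone 15 libraries and 5.75, 5.90 and 6.40 in those of clone 37, above the parental range in both clones. It rose by 0.88 ± 0.19 on the log2 scale in clone 37 (adjusted p = 0.000861, edgeR), and its clone 15 value was 0.80 ± 0.19. EGF itself was at 1.65 ± 0.539 CPM in parental cells and 3.675 ± 0.692 in clone 37 (SD, n = 3 each), a rise of 1.15 ± 0.27 (adjusted p = 0.00162, edgeR). Both were named after their values were seen. TGFA was not called, and AREG, EREG and EPGN were under the filter on low counts.

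Genes for the proteases that release ligands and cleave receptors, and for the proteins that guide or assemble with them, changed in both directions. In clone 37 against parental cells 3 of 10 rose and 5 fell. RHBDF2, which guides the sheddase ADAM17 to the cell surface, rose by 0.77 ± 0.11 (adjusted p = 1.27e-05, edgeR), and APH1A, a gamma-secretase subunit, fell by 0.63 ± 0.06 (adjusted p = 3.06e-07; -0.40 relative to its neighbours). In clone 15 against parental cells 1 rose and 4 fell, among them BACE1, a protease that cleaves NRG1, at -1.45 ± 0.10 and ADAM17 at -0.79 ± 0.08. With GC and length trends removed 3 were higher and 5 lower in clone 15. With unstranded counts BACE1 was at -0.59, and relative to its neighbours ADAM17 was at -0.25.

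Between the clones, 4 of these 10 genes were higher in clone 37 and 3 lower. BACE1 was higher by 0.96 ± 0.09 (adjusted p = 4.25e-10, edgeR; 0.22 with unstranded counts) and RHBDF1 by 0.98 ± 0.11 (adjusted p = 1.40e-08; 0.52 relative to its neighbours).

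Of the 7 adaptors between receptors and RAS that were tested in all comparisons, 2 rose and 4 fell in clone 37 against parental cells. With SHC3 and SHC4 included 3 of 9 rose and 4 fell, and 1 and 3 relative to neighbours. With GC and length trends removed 4 of these were higher and 3 lower. The exchange factors SOS1 and SOS2 fell by 0.60 ± 0.06 (adjusted p = 8.10e-08, edgeR) and 0.60 ± 0.07 (adjusted p = 1.85e-06), and were at -0.21 and -0.23 relative to their neighbours. In clone 15, 3 of 7 were lower and none higher, led by SHC2 at -1.07 ± 0.12 and SOS1 at -0.77 ± 0.08 (-0.23 relative to its neighbours). Between the clones 4 of the 7 were higher in clone 37 and 2 lower (6 and 2 of 9 with SHC3 and SHC4, and 4 and 0 of the 9 relative to neighbours), with GAB1, a docking protein, at 0.74 ± 0.07 (adjusted p = 1.60e-10) and SHC2 at 0.65 ± 0.12 (adjusted p = 3.39e-05), which became 0.34 for each gene relative to neighbours. SHC3 and SHC4 were named after their values were seen. They passed the filter on low counts only in the comparisons with clone 37, where they were highest, at 2.03 and 1.36 CPM. Counts that hold them are thus no support for a direction of this list.

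In the cascade from RAS to ERK, 2 of 10 rose and 2 fell in clone 37. HRAS rose by 0.61 ± 0.09 (adjusted p = 1.23e-05, edgeR; 0.32 relative to its neighbours). BRAF fell by 0.86 ± 0.06 (adjusted p = 3.74e-09), but relative to its neighbours it was at 0.10 and was not called (adjusted p = 0.192). In clone 15, 3 were higher and 4 lower, among them HRAS at 0.77 ± 0.10 and MAPK3, which encodes ERK1, at -0.75 ± 0.08 (-0.47 relative to its neighbours).

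Between the clones, 2 genes of the RAS to ERK cascade were higher in clone 37 and 3 lower. ARAF was lower by a log2 difference of -0.43 ± 0.07 (adjusted p = 5.46e-06, edgeR; -0.27 without GC and length trends). BRAF was at -0.41 ± 0.06 (adjusted p = 2.12e-06), a direction that turned to 0.44 relative to its neighbours.

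Of the PI3-kinase and AKT genes, none rose in clone 37 against parental cells and 5 of 9 fell. Relative to neighbours 2 were higher and 5 lower, and with GC and length trends removed none was higher and 2 were lower. AKT1 fell by 0.69 ± 0.06 (adjusted p = 2.22e-08, edgeR; -0.32 relative to its neighbours). In clone 15, 1 was higher and 1 lower (4 and 1 with GC and length trends removed, 1 and 3 relative to neighbours), the higher one being AKT2 at 0.38 ± 0.09 (0.22 relative to its neighbours). Between the clones 4 were lower in clone 37 and none higher. Relative to neighbours 3 were lower and 1 higher, and with GC and length trends removed 5 were lower and 1 higher. AKT2 was at -0.66 ± 0.06 between the clones (adjusted p = 5.28e-11, edgeR, and -0.16 relative to neighbours). AKT1 was at -0.73 ± 0.06 (adjusted p = 2.23e-11) and was no longer called relative to its neighbours (-0.13, adjusted p = 0.0732).

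Genes that restrain the receptors or set their turnover, such as ubiquitin ligases, rose in 4 and fell in 4 of 11 cases in clone 37. The ligases WWP1 and STUB1 rose by 0.61 ± 0.07 (adjusted p = 5.27e-07, edgeR) and 0.56 ± 0.06 (adjusted p = 9.68e-07; 0.21 relative to its neighbours). In clone 15 none was higher and 6 were lower, with LRIG2 at -0.59 ± 0.08 and the ligase CBLB at -0.55 ± 0.10 (-0.31 for each relative to neighbours). Beside 25.1% of all genes called higher and 26.2% lower, this count depended on the setting: relative to neighbours 3 of the 11 were lower and none higher, and with GC and length trends removed 3 were higher and 4 lower. Between the clones 5 were higher in clone 37 and 2 lower, with WWP1 at 0.94 ± 0.07 (adjusted p = 3.70e-12) and STUB1 at 0.81 ± 0.07 (adjusted p = 3.76e-09), which became 0.27 and 0.36 relative to neighbours.

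The last list held 12 genes that ERK signalling is known to induce, many of which encode its inhibitors. DUSP4, a phosphatase that inactivates ERK in the nucleus, stood at 7.77, 8.34 and 6.81 CPM in parental libraries, 27.3, 28.6 and 29.2 in clone 15 libraries and 8.40, 7.35 and 6.64 in those of clone 37. Clone 15 was above all other libraries, and parental cells and clone 37 overlapped. The fitted log2 fold change was 1.86 ± 0.12 in clone 15 against parental cells and -1.92 ± 0.11 in clone 37 against clone 15 (adjusted p = 1.18e-14, edgeR).

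SPRY2, which encodes an inhibitor of RAS signalling, had 20.4, 19.7 and 17.9 CPM in parental libraries, 19.5, 20.2 and 20.7 in clone 15 libraries and 8.31, 7.93 and 9.88 in those of clone 37. Clone 37 was below all other libraries. SPRY2 fell by 1.17 ± 0.12 in clone 37 against parental cells (adjusted p = 3.03e-07, edgeR; -0.70 relative to its neighbours) and was at -1.195 ± 0.11 against clone 15 (adjusted p = 4.77e-10; -0.76 relative to neighbours).

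DUSP5, a nuclear phosphatase of ERK, rose by 0.94 ± 0.16 in clone 37 against parental cells (adjusted p = 6.53e-05, edgeR), from 5.51 ± 0.943 to 10.7 ± 0.799 CPM (SD, n = 3 each). SPRY1, which like SPRY2 encodes an inhibitor of RAS signalling, was at -0.78 ± 0.11 in clone 15 against parental cells. In all, 1 of 9 tested genes of this list rose and 1 fell in clone 37, 3 of 11 were higher and 1 lower in clone 15, and 3 of 11 were higher and 5 lower in clone 37 against clone 15. ETV4 and DUSP6, 2 further ERK targets named after their values were seen, passed the filter on low counts only in the comparisons with clone 15, where they were highest, at 0.913 and 1.18 CPM against 0.258 and 0.649 in parental cells and 0.176 and 0.397 in clone 37. Having passed through the group where they are high, they are no support for a direction of the list. Over the 9 genes of the list tested in all 3 comparisons, 2 were higher and 1 lower in clone 15 against parental cells, and 3 were higher and 3 lower between the clones. Relative to neighbours the counts over all tested genes of the list became 2 higher and 3 lower in clone 37, 6 and 2 in clone 15, and 1 and 5 between the clones. The clone 15 and between-clone counts include ETV4 and DUSP6, so no direction of the list is read from them. The medians of the 9 were -0.07 in clone 37 and 0.03 in clone 15 against parental cells, and -0.03 between the clones.

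**Figure D5:**
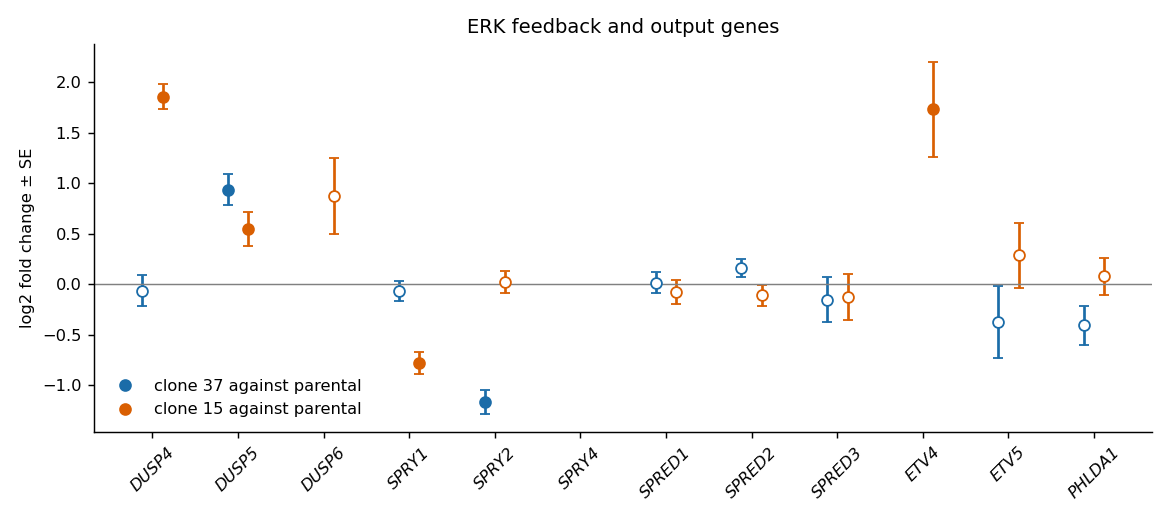
Log2 fold change against parental cells with its SE (vertical axis) of the tested genes among 12 that ERK signalling is known to induce, for clone 37 (blue) and clone 15 (orange). Filled points were called and open points were not. DUSP4 is at 1.86 in clone 15 and -0.06 in clone 37, and SPRY2 falls by 1.17 in clone 37.

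The genes whose pattern over the 9 libraries was most like that of NRG1 were found by Pearson's r on log2(CPM + 0.5) among 13020 protein-coding genes with a mean of at least 1 CPM. The libraries form 3 separate levels, one for each group, so r describes the order and spacing of these levels and carries no p. GBGT1, a glycosyltransferase gene, had r = 0.996, with 0.937 CPM in parental cells, 10.1 in clone 15 and 0 counts in all clone 37 libraries. SERTM1 had r = 0.994, with 1.11, 2.67 and 0.777 CPM in the same order.

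ABCA1, which encodes a cholesterol exporter, had r = 0.994, with mean levels of 18.5, 38.0 and 12.9 CPM in parental, clone 15 and clone 37. EIF2B5, which encodes a subunit of a translation initiation factor, had r = 0.994, with 53.6, 89.3 and 45.8 CPM. AIFM2, which encodes an enzyme that protects against lipid peroxidation, had r = 0.993, with 2.45, 13.3 and 0.971 CPM. All 5 were highest in clone 15 and lowest in clone 37, over ranges that differed widely. With Spearman's rho only 1 of the 5 was among the closest 5, so the choice depended on the measure.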

How the data were processed

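Total RNA from 9 HEK293T libraries was depleted of ribosomal RNA and sequenced as paired ends with a directional kit, per the labels' protocols. The authors deposited raw counts per gene, 1 file per library, in the layout of STAR's gene counts, in which uniquely mapped reads are counted. STAR 2.7.10a, FastQC 0.11.9 and build hg38 are named in the submitters' processing notes. The annotation release is not given in the sources used here. Reads that map to several places, 4.59% to 14.0% of all, are not in such counts, and this share was lower with the longer reads of clone 15.

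Column 4 was used, since it held 92.6% to 94.0% of stranded counts. The 4 summary entries that name no gene stayed out of all totals. They were reads with no annotated exon (19.2% to 34.6%), multimapping reads, ambiguous reads (3.76% to 4.40%) and unmapped reads (1.24% to 5.16%). Positions and exon lengths came from GENCODE 29 on GRCh38, which held 58496 of the 60683 identifiers. The test was the quasi-likelihood test of edgeR 4.0.16 in R 4.3.3 (filterByExpr, TMM scaling, robust glmQLFit, glmQLFTest), run for each comparison on its own 6 libraries, after tests on simulated data. A gene was called at a Benjamini-Hochberg adjusted p under 0.05 over all genes tested. The SE of a log2 fold change was obtained by dividing it by the root of its F statistic.

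The 10 genes and the lists were chosen with earlier results of these data known. Named by rule were the 10 genes, in each pathway list and comparison the 2 called genes with the largest change among those with at least 5 CPM and groups that do not overlap, and the 5 genes most like NRG1. Some genes named by this rule are not reported here. Marker lists stood for kidney, neuronal traits, fibroblast, epithelium, blood, endothelium and glia. Alternatives were RLE size factors, DESeq2 1.42.0, no filter or one of 1 CPM in 3 libraries, unstranded counts, 1 fit of all 9 libraries, a replicate block, each gene against the median of 100 neighbouring genes, removal of GC and length trends, and leaving out each replicate. For the genes most like NRG1 they were Spearman's rho, a minimum of 5 CPM and a pseudocount of 1 CPM. The longest-transcript length, the counts of each list under 2 of the settings, the counts without NRG1, and the counts and medians over genes tested in all 3 comparisons were added after the data were seen. The reporter transcripts were not analysed here.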

Additional observations from a re-analysis of the deposited data

Results flagged for a closer look

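For 5 of the 8 genes tested besides NRG1 the change in clone 37 differed from the change in clone 15, by the fit of clone 37 against clone 15, in which the shared parental libraries drop out. Of all 17712 genes in that fit 57.7% were called. On the log2 scale the change in clone 37 minus that in clone 15 was -5.71 for NRG1, a description without a test because NRG1 was chosen on clone 15. It was -0.475 for NRG2, -0.50 for ERBB2, 0.23 for EGFR, 0.43 for ERBB3 and 0.42 for ERBB4, all called by edgeR at an adjusted p under 0.05. NRG1 and ERBB2 lay on opposite sides of the parental level in the 2 clones, while EGFR and ERBB4 were lower in both clones and lower by more in clone 15. For ERBB2 this was not kept relative to neighbouring genes, where it was at -0.39 in clone 37 and at -0.015 in clone 15. The groups of NRG2 overlapped, and its difference was lost under 6 of the 15 alternatives. EGFR lost its difference under 3 of them. Every clone 15 library was read at 100 bp, so these differences and read length cannot be told apart.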

How the results depend on the processing

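Of 370 values of single genes under the alternatives, 347 kept their direction and their side of the threshold, 12 lost a call, 1 gained one and 10 turned direction. Against the neighbouring genes, clone 15 values turned to -0.049 for NRG2, -0.015 for ERBB2, -0.15 for ERBB3 and -0.33 for ERRFI1, and the clone 37 value of ERRFI1 to -0.22. ERRFI1 in clone 15 also turned with unstranded counts (-0.012) and without parental replicate 3 (-0.060). Between the clones NRG4 turned with GC and length trends removed (-0.047), without clone 15 replicate 2 (-0.055) and without clone 37 replicate 1 (-0.045). Over all replicates left out in turn, ERRFI1 in clone 15 ran from -0.060 to 0.10, and NRG4 between the clones from -0.055 to 0.25. Clone 15 counts against parental cells, and those between the clones that hold NRG1, say only how many values passed the threshold. The called genes numbered 5 to 7 in clone 37 against parental cells, 4 to 6 in clone 15 and 4 to 6 between the clones, and no total of called genes moved by over 1.5 times. By direction, pathway genes called higher in clone 15 went from 9 to 18 with GC and length trends removed. The genes of the family called higher went from 2 to 1 in clone 15 against the neighbouring genes, and from 1 to 2 in clone 37 without a filter (NRG3) and without parental replicate 2 (ERRFI1). Over the 9 ERK-induced genes tested in all comparisons the list's median was -0.066, 0.027 and -0.026, against -0.066, 0.078 and -0.48 over all its tested genes. The replicate numbers do not pair the samples: correlations of same-numbered deviations ran from -0.153 to 0.0201. With a replicate block the counts were 6, 5 and 6 of the 10 genes and 33, 26 and 41 of the pathway genes, against 36, 28 and 40 without it. Without a filter on low counts NRG3 could be tested, with a log2 fold change of 3.15 in clone 37, called by edgeR, and a value of 2.49 in clone 15. Of the 5 genes most like NRG1, Spearman's rho kept 1, a minimum of 5 CPM kept 3 and a pseudocount of 1 CPM kept 4. Depth limits BTC and NRG3, with 2 and 70 counts over all 9 libraries, and NRG1 in clone 37, with 21 counts in that group. For low genes a setting that moves a few counts can move the fold.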
